A study of Mus musculus with 3 samples.

Results

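TRBV31 is the only V gene of the mouse T cell receptor beta (TRB) locus that lies downstream of the constant genes and faces the other way. It was examined here in scTCR-Seq of sciatic nerves, which reads the receptor chains of single T cells. Members were all productive TRB contigs of called cells whose V gene was named TRBV31. There were 275 such contigs in 275 cells, and they made up 199 of 3872 rearrangements, a rearrangement being a nucleotide CDR3 with its V and J names, counted 1 time per library. A further 71 nonproductive TRBV31 contigs of called cells were examined beside them. The libraries held CD45+ immune cells from neuropathic NOD.AireGW/+ mice, nonobese diabetic mice with 1 partial loss-of-function allele of Aire that develop a spontaneous autoimmune neuropathy. Replicates 1 and 2 came from 1 mouse each and replicate 3 from 2 pooled mice, and all 3 shared the genotype, the tissue and the disease state, so the series held no control group. The mice's age is not given in the sources used here. Which of these cells expressed CD4 was not analysed here.

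A TRB chain is assembled in the thymus by joining a D to a J segment and then a V to the DJ. The recombinase reads a recombination signal beside each segment, made of a heptamer, a spacer and a nonamer. Most V genes lie upstream and point the same way as D and J, so the DNA between is cut out as a circle. TRBV31 points toward its partners from the other side, and its joining turns the DNA between around and keeps it in the chromosome. The CDR3, which spans the junction, is the part of the chain that lies over the presented peptide. A cell may rearrange both alleles, and a nonproductive join gives no chain that can be selected.

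On GRCm38, the build named mm10, TRBV31 lay on the minus strand at chr6:41557691-41558452, 9.34 kb beyond TRBC2 and 24.5 kb beyond TRBD1. It was the only minus-strand gene among 35 annotated TRBV genes. TRBV30, the nearest V gene on the other side, ended 251.2 kb upstream of TRBD1. The germline stretches that enter the junction are shown first, since the CDR3 results turn on them. The V end runs from the conserved cysteine codon to the last coding base, and the signal that follows it has its heptamer and nonamer in capitals. TRBV16 and TRBV13-2, the genes next above and below TRBV31 by mean share, are given beside it.
TRBV31 V end (chr6:41557693-41557706, minus strand): tgtgcctggagtct
TRBV31 signal (chr6:41557654-41557692, minus strand): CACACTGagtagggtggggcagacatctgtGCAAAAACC
TRBV16 V end (chr6:41152214-41152230, plus strand): tgtgcaagcagcttaga
TRBV16 signal (chr6:41152231-41152269, plus strand): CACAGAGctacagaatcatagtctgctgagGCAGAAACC
TRBV13-2 V end (chr6:41121817-41121832, plus strand): tgtgccagcggtgatg
TRBV13-2 signal (chr6:41121833-41121871, plus strand): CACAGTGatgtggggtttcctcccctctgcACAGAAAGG
TRBD1 (chr6:41533201-41533212, plus strand): GGGACAGGGGGC
TRBD2 (chr6:41542163-41542176, plus strand): GGGACTGGGGGGGC

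The TRBV31 heptamer matched 6 of 7 bases of the consensus CACAGTG and its nonamer 8 of 9 bases of ACAAAAACC. Of the 20 TRBV segments compared, 7 had the exact heptamer (35%) and 1 the exact nonamer (5%). The V end of TRBV31 was 14 bases long, against 17 for TRBV16 and 16 for TRBV13-2, and its codon 3, tgg, encodes tryptophan. The framework and CDR1 and CDR2 sequences given for the 169 TRBV31 contigs of replicates 2 and 3 were a single sequence of 270 bases with 0 differences from GRCm38. The V end, D and J segments were not part of that comparison, and replicate 1 had no such sequences, so trimming and added bases are counted against GRCm38 and not against a NOD germline.

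The libraries held 2374, 3555 and 705 cells with a filtered receptor contig, and 1302, 2033 and 537 productive TRB rearrangements. CD45+ cells without such a contig were not counted. TRB contigs had a median of 7, 6 and 4 unique molecular identifiers (UMIs), which count captured transcripts. Between libraries, 10 barcodes were shared, of which 0 carried the same TRB in both and 1 carried a TRBV31 chain in either.

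TRBV31 was a V gene of middle rank in all 3 nerves. Replicate 1 had 77 TRBV31 rearrangements of 1302 (5.91%, exact 95% interval 4.70 to 7.34), replicate 2 had 102 of 2033 (5.02%) and replicate 3 had 20 of 537 (3.72%), or 4.89% ± 1.10 (SD, n = 3). The intervals of the 3 libraries overlapped. It ranked 8 of 22 named genes by mean share, and its place was 8, 9 and 11 in replicates 1 to 3. TRBV16, next above, had 7.45% ± 0.65 and TRBV13-2, next below, 4.83% ± 0.33. TRBV31 and the rearrangements named TRBV13-2 alone therefore differed by less than the spread between libraries. Each library gave TRBV16 a higher share than TRBV31. Reads of TRBV12-2 and TRBV13-2 were often named for both genes together (402 rearrangements, mean share 10.5%). The own share of TRBV13-2 is thus a lower limit, and the gene may rank above TRBV31. Counted by contigs, TRBV31 had 3.95% ± 0.65.

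**Figure D1:**
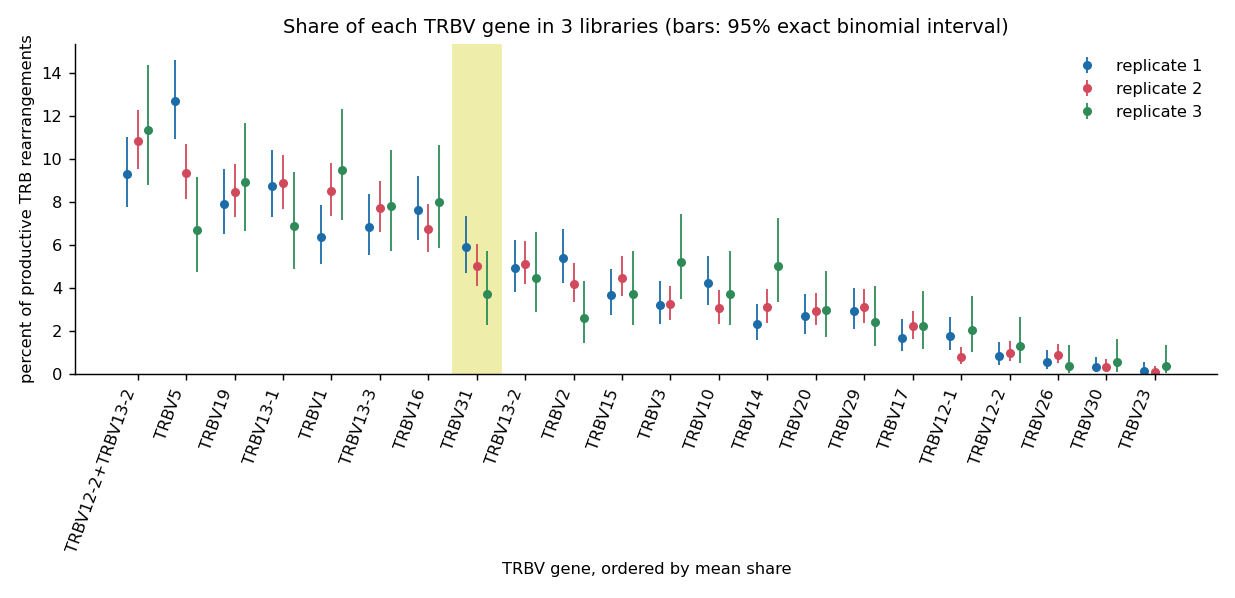
Percent of productive TRB rearrangements (y axis) that used each TRBV gene (x axis, ordered by mean share) in the 3 libraries, with exact binomial 95% intervals as bars; TRBV31 is shaded. TRBV31 is in place 8, at 5.91%, 5.02% and 3.72%, with overlapping intervals.

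The V end of TRBV31 was left whole in many joins. Junctions were matched to the germline base by base, so an added base that happens to repeat the germline counts as germline. The full 14 bases stood in 38 of the 77 rearrangements from replicate 1 (49.4%), in 39 of the 102 from replicate 2 (38.2%) and in 9 of the 20 from replicate 3 (45%). Other TRBV genes had a whole V end in 23.8%, 22.04% and 19.7%. The TRBV31 values lay above these in each library, with no overlap between the 2 sets of values. On average 1.43 bases were missing from the V end of TRBV31 and 2.50 from those of the others. By the share left whole, TRBV31 (43.2%) took place 2 of 19 matched genes, after TRBV2 (49.7%) and before TRBV5 (38.1%). Trimming was looked at after other values had been seen, and no test was made of it.

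**Figure D2:**
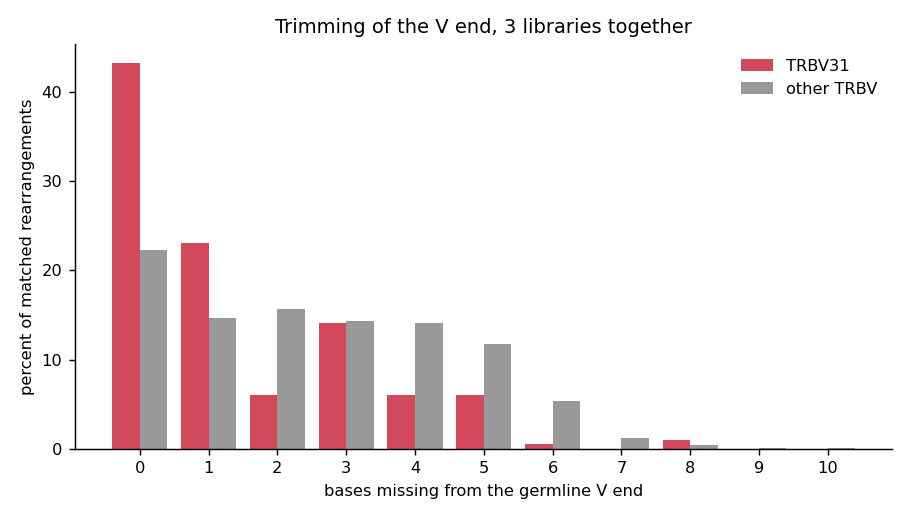
Percent of matched rearrangements (y axis) by the number of bases missing from the germline V end (x axis), for TRBV31 (199) and the other TRBV genes (3129), all libraries together. TRBV31 peaks at 0 bases with 43.2%, against 22.3% for the others.

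The start of the CDR3 held the residues of that V end. Tryptophan stood at position 3 in 196 of 199 TRBV31 rearrangements (98.5%) and in 0 of 3673 rearrangements of other V genes. Cysteine, alanine, tryptophan and serine opened 162 of the sequences (81.4%), and 88 of the 199 (44.2%) had leucine at position 5. The last germline bases, ct, open codon 5, and any codon that begins this way encodes leucine. So the 86 rearrangements with a whole V end all had leucine there. With 1 base removed, codon 5 still begins with c, and the residue was proline in 19, arginine in 12, glutamine in 10 and histidine in 5 of 46. These residues are set by the genetic code and by the matching, so their counts in the classes are no test. Of the 55 rearrangements that had lost 3 or more bases, 27 (49.1%) had leucine or one of those 4 residues at position 5. Leucine at position 5 made up 15.1% of the rearrangements of other V genes. Some of those encode it in the V end, as TRBV16 does with tta, so this is no matched background. None was computed for the 27 of 55.

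The D segment, the added bases and the length were described next. N bases, added without a template, averaged 3.87, 3.58 and 3.35 per TRBV31 junction in replicates 1 to 3, and 3.54, 3.47 and 3.88 in junctions of other genes, so the order of the 2 groups was not the same in each library. No added base was found in 9 of 199 TRBV31 junctions (4.52%) against 7.80% of others (exact stratified test, p = 0.0977, adjusted p = 0.287), a trait called higher in 1 of 19 genes (5.26%) and lower in 0. TRBV31 joins to a TRBJ2 gene, which can use either D segment, matched TRBD2 in 83 and TRBD1 in 31 (72.8% TRBD2), against 920 and 747 in other genes (55.2%). The TRBD2 share with TRBV31 was 84.1%, 62.7% and 81.8% in replicates 1 to 3, against 55.5%, 54.0% and 58.8%. Of the 137 TRBJ2 joins of TRBV31 and 2016 of other genes, those with no D match or an ambiguous one were left out. A tie in match length went to TRBD1. This too was a description with no test, and single V genes were not compared for it.

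CDR3s of TRBV31 were 10 to 18 residues long, with a mean of 13.7 ± 1.4 (SD over 199 rearrangements), against 14.0 in other V genes. The mean was lower with TRBV31 in replicates 1 (13.7 against 14.0) and 2 (13.6 against 13.9) but not in replicate 3 (14.05 against 14.0), and the median was 14 in both groups in each library. Lengths above the library median made up 27.3%, 29.4% and 30% of TRBV31 rearrangements in replicates 1 to 3, against 36.8%, 34.5% and 39.1% of others. The share was lower in 3 of 3 libraries, but the difference did not pass the adjusted test (p = 0.0398, adjusted p = 0.170, exact stratified test). Of 21 genes, 2 were called for longer CDR3s (9.52%) and 2 for shorter ones (9.52%). Adjustment was over all 247 tests of 12 binary traits in the TRBV genes with at least 10 entries. Of those tests 38 passed (15.4%), and the strongest was the low productive share of TRBV12-1. For TRBV31, 5 of 12 traits had an unadjusted p under 0.05 and 2 passed. A positive net charge in the middle of the CDR3 was found in 35 of 199 TRBV31 rearrangements (17.6%) and in 12.3% of others, and it did not pass either (exact stratified test, p = 0.0372, adjusted p = 0.167), while 3 of 21 genes were called higher (14.3%) and 3 lower (14.3%). Of these 35, 11 had arginine at position 5, against 21 of all 199. Position 5 is inside the stretch counted for charge, so arginine there raises the charge by definition.

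TRBV31 chains were read with fewer transcripts on average than those of other V genes, most clearly in replicate 1. Each rearrangement was given the median UMIs of its cells. The mean of this value for TRBV31 was 6.08, 6.63 and 4.90 in replicates 1 to 3, against 8.68, 7.19 and 5.24 for the other genes. By this mean TRBV31 was lower in each library, most so in replicate 1. The medians lay closer, at 6, 5.5 and 4 for TRBV31 in replicates 1 to 3 against 7, 6 and 4, so they were equal in replicate 3. Values above the library median made up 27.3% (21 of 77), 36.3% (37 of 102) and 35% (7 of 20) of TRBV31 rearrangements in replicates 1 to 3, against 47.2%, 42.9% and 46.2% of others. Over all libraries there were 65 where 88.0 would be expected (ratio 0.739, exact stratified test, p = 0.000719, adjusted p = 0.00658). Such a call was common among V genes. Of 21 genes tested, 5 were called lower (23.8%) and 4 higher (19%), and the ratio of TRBV31 was in place 5 from the lowest, the lowest being that of TRBV2 (0.308). Without replicate 1 the ratio was 0.837 and the adjusted p = 0.377, and with rearrangements of 1 cell only it was 0.877 with an adjusted p = 0.355 (exact stratified tests). In cells with 1 TRA and 1 TRB, TRA UMIs averaged 5.85, 3.59 and 2.83 beside TRBV31 and 5.71, 4.04 and 3.09 beside other V genes; their part in the result was not tested.

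**Figure D3:**
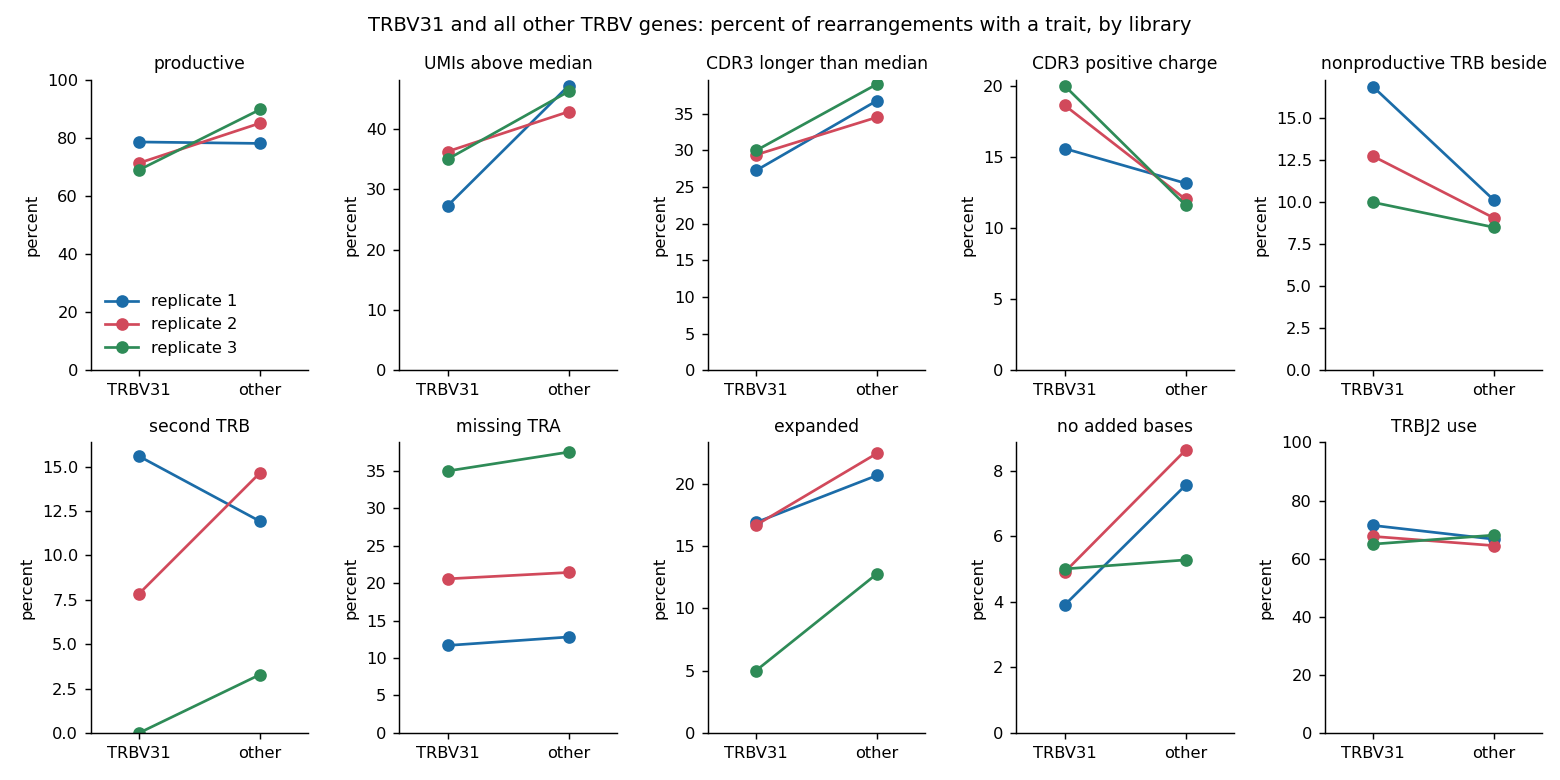
Percent of rearrangements with each trait (y axes, each from 0) for TRBV31 and for all other TRBV genes, 1 line per library. The lines for UMIs above the median rise from TRBV31 to the other genes in 3 of 3 libraries. The line for the productive share, which is taken over productive rearrangements and nonproductive contigs, is flat in replicate 1 and rises in replicates 2 and 3.

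TRBV31 had a larger share of the contigs called nonproductive than of the productive joins in replicates 2 and 3. Nonproductive, high-confidence TRB contigs of called cells with a V and a J gene numbered 365, 380 and 68 in replicates 1 to 3, and 21 (5.75%), 41 (10.8%) and 9 (13.2%) of them used TRBV31. These shares count contigs, 1 per cell for TRBV31. Its productive shares, in the same order, were 5.91%, 5.02% and 3.72% by rearrangement and 4.48%, 4.14% and 3.22% by contig. The nonproductive share was close to the productive share by rearrangement in replicate 1 and above that by contig. In replicates 2 and 3 it was higher by either count. With 71 of 813, TRBV31 was in place 4 among nonproductive contigs, and in place 8 by mean share of productive rearrangements. Productive rearrangements were 199 of 270 TRBV31 entries (73.7%) against 83.2% of other V genes, where 222.8 would be expected (ratio 0.893, exact stratified test, p = 0.000176, adjusted p = 0.00174). Productive chains entered 1 time per rearrangement, but nonproductive contigs from cells of 1 clone could each be an entry. Entries were therefore not independent, and the p-values of this comparison can be too small. Repeats of this kind can also shift the nonproductive shares and the ratio, for TRBV31 and for the others. By library the productive share was 78.6%, 71.3% and 69.0% for TRBV31 and 78.1%, 85.1% and 89.8% for the others. Software may have differed for replicate 1, and its part in this difference between libraries was not tested. Of the 71 TRBV31 contigs, 46 were full length. With full-length nonproductive contigs only, the productive share was 81.2% against 89.7% (ratio 0.913, exact stratified test, adjusted p = 0.00194). In replicate 1, 123 of the 365 nonproductive contigs were of a single other gene, TRBV12-1. Leaving that gene out was chosen after seeing the data. TRBV31 was then 8.68% of nonproductive contigs in replicate 1. The productive shares of the others were then 84.5%, 85.7% and 90.04%, and the ratio was 0.867 (exact stratified test, adjusted p = 9.63e-06). With TRBV12-1 kept and without replicate 2 the ratio was 0.948 and the adjusted p = 0.702 (exact stratified test). Of 22 genes tested, 6 were called lower (27.3%) and 7 higher (31.8%), and TRBV31 was in place 7 from the lowest ratio, so a call of this kind was no mark of TRBV31.

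Many of the nonproductive contigs were out of frame. Read in its own frame the V end encodes cysteine, alanine, tryptophan and serine, and read from 2 bases further on, from tgc, it encodes cysteine, leucine and glutamate. The called CDR3 began in this shifted frame in 30 of the 71 contigs, in the V frame in 17 and elsewhere in 1, and 23 had no called CDR3. The shifted junction with most UMIs in each library is shown, with the bases between the germline V and J matches in capitals.
Nonproductive, replicate 1, TRBJ1-1: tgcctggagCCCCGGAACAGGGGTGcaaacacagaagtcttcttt
Nonproductive, replicate 2, TRBJ2-1: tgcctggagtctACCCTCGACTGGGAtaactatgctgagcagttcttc
Nonproductive, replicate 3, TRBJ1-1: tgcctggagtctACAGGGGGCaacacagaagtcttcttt
The whole V end stood in the last 2 of these. Of the 71 nonproductive contigs, 9 had the nucleotide CDR3 of a productive chain of the same library, and without such contigs of any gene the ratio was 0.907 (exact stratified test, adjusted p = 0.00764). A productive TRB was present in 64 of the 71 cells, and it used TRBV31 in 0 of them, which allows up to 3 cells. TRBV31 made up only 4.48%, 4.14% and 3.22% of productive contigs in replicates 1 to 3, so this 0 is not read as an absence. Among nonproductive contigs, TRBJ2 genes made up 46 of 71 for TRBV31 (64.8%, 95% interval 52.5 to 75.8) and 61.9% for other V genes. In replicates 1 to 3 the share was 57.1%, 65.9% and 77.8% for TRBV31, against 76.5%, 48.4% and 54.2%. The order of the 2 groups thus differed between libraries, and the others of replicate 1 included the many TRBV12-1 contigs. No test was made of this. Contigs with a TRBV31 segment and no J gene numbered 0, 0 and 3, of 47, 31 and 50 such TRB contigs in all.

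Second chains were sought because each cell has a pair of TRB alleles. A further productive TRB was present in 25 of the 275 cells with TRBV31 (15, 10 and 0 in replicates 1 to 3). Counted per rearrangement, this was 20 of 199 (10.1%) against 12.1% of other V genes (exact stratified test, adjusted p = 0.682). The TRBV31 share was above that of the others in replicate 1 (15.6% against 11.9%) and below it in replicate 2 (7.84% against 14.7%). Among 20 cells with exactly a pair of TRBs of unequal UMIs, TRBV31 was the one with fewer in 12 and with more in 8, which was 10 of 13 in replicate 1 and 2 of 7 in replicate 2 (adjusted p = 0.792). The partners were spread over 12 V names, TRBV13-3 being in 4 cells and TRBV1 in 3. In 0 of the 25 cells did both chains use TRBV31, which allows up to 3 cells and is not read as an absence. A nonproductive TRB lay beside 28 of 199 TRBV31 rearrangements (14.1%) and 9.34% of others, higher in 3 of 3 libraries without passing the exact stratified test (p = 0.0360, adjusted p = 0.165).

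The J genes joined to TRBV31 were much those of other V genes. TRBJ2 genes, the cluster closer to TRBV31, made up 71.4% (55 of 77), 67.6% (69 of 102) and 65% (13 of 20) of joins in replicates 1 to 3, against 66.7%, 64.5% and 68.1% in other V genes. The difference was smaller than the spread between libraries and did not pass the test (ratio 1.05, exact stratified test, p = 0.398, adjusted p = 0.698). TRBJ2-7, the J gene nearest to TRBV31 at 13.8 kb, was the most used, in 38 of 199 (19.1%) against 20.0% of others. Of 252 pairs of a TRBV and a TRBJ gene, 4 passed (1.59%), and 0 of the 12 with TRBV31 did, 0 of them also at an unadjusted p under 0.05. The ratio to the expected count was highest for TRBJ1-2 (13 joins, ratio 1.30, adjusted p = 0.884) and lowest for TRBJ2-2 (6 joins, ratio 0.601, adjusted p = 0.795), both by the exact stratified test. The share ranged more widely over the 3 libraries for TRBV31, with its fewer joins, than for the others pooled in 11 of 12 J genes, TRBJ2-7 being the exception (18.2%, 19.6% and 20% against 21.1%, 19.9% and 18.2%). TRBJ2-5 was in 24.7%, 7.84% and 10% of TRBV31 joins in replicates 1 to 3, and TRBJ2-1 in 6.49%, 19.6% and 5%. Over 12 J genes in 3 libraries, the J shares most like those of TRBV31 were those of TRBV12-2+TRBV13-2 (Pearson r = 0.68 over 36 values), TRBV5 (0.67) and TRBV13-3 (0.66), values that share libraries and the common J preferences.

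**Figure D4:**
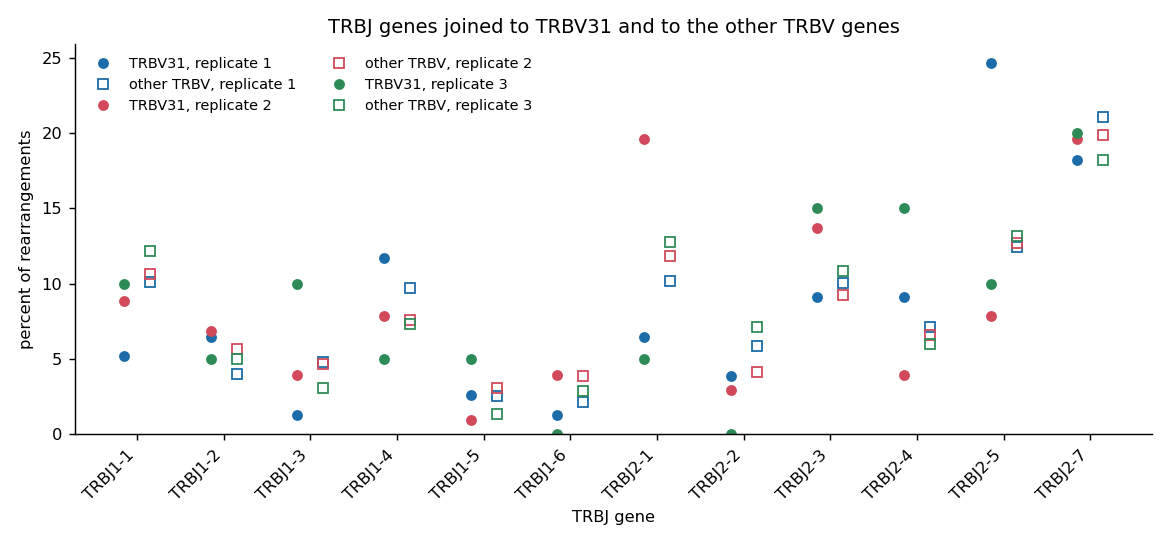
Percent of rearrangements (y axis) that used each TRBJ gene (x axis) for TRBV31 (filled circles) and the other TRBV genes together (open squares) in the 3 libraries. TRBJ2-7 leads both groups when the libraries are pooled, with close points in each, and the TRBV31 points scatter more for the other 11 J genes, as for TRBJ2-5 between 7.84% and 24.7%.

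TRA chains of the TRAV12 family were not found beside TRBV31 in cells with exactly 1 chain of each kind. The number of pairs was 0 of 52, 0 of 72 and 0 of 12 in replicates 1 to 3, where 3.63, 5.77 and 0.835 would be expected, while the other V genes had TRAV12 in 7.40%, 8.47% and 7.24% of pairs. In all, 0 of 136 distinct pairs allows a share of up to 2.21%, against 7.93% of others, at least 3.41-fold lower than the 10.2 expected when set against a floor of 3 counts over all libraries. It was the only call among 340 pairs of a TRBV gene and a TRAV family (0.294%; exact stratified test, p = 3.25e-05, adjusted p = 0.0111). Of the 20 TRBV genes with enough pairs, TRBV31 had the lowest TRAV12 share, and the next were TRBV20 (2.94%) and TRBV29 (3.57%), the highest being TRBV10 (17.5%). The family was counted over its duplicated genes, of which TRAV12D-2 (95 pairs) and TRAV12-3 (53 pairs) were the most frequent. The call was lost with at least 3 UMIs per chain, where 0 of 79 pairs remained (adjusted p = 0.205), without replicate 1 (adjusted p = 0.147) and without replicate 2 (adjusted p = 0.434), in the same exact test. It was also lost when cells with more than 1 TRA or TRB were taken in, where 5 of 192 pairs held TRAV12 (ratio 0.325, adjusted p = 0.302, exact stratified test), of which 4 lay in cells with a pair of TRAs and 3 in cells with a pair of TRBs. Doublets were not removed here, and barcodes that hold a pair of cells cannot be told apart from cells with more chains, here or among the cells with a second TRB.

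**Figure D5:**
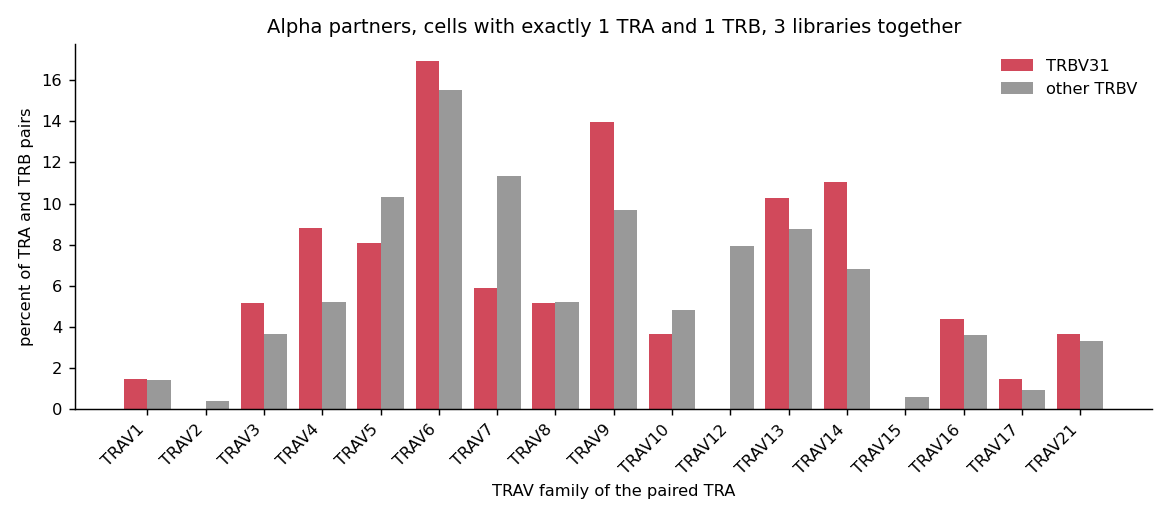
Percent of distinct TRA and TRB pairs (y axis) by TRAV family of the TRA (x axis) in cells with exactly 1 TRA and 1 TRB, for TRBV31 (136 pairs) and the other TRBV genes (2446 pairs), all libraries together. TRAV12 is at 0 beside TRBV31 and at 7.93% beside the others.

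Other alpha partners were diverse. The 136 pairs used 40 TRAV genes of 14 families and 34 TRAJ genes. TRAV6 was the most frequent family (23 pairs, 16.9%, against 15.5% of others), then TRAV9 (19 pairs, 14.0% against 9.69%). TRAV7 was in 8 pairs (5.88% against 11.4%, exact p = 0.0487, adjusted p = 0.614). A TRA was missing beside 18.6% of TRBV31 rearrangements and 20.8% of others (exact stratified test, adjusted p = 0.937).

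Most TRBV31 rearrangements were found in a single cell, as were those of other V genes. Of 199 rearrangements, 168 were found in 1 cell, 21 in 2 cells and 5 in 3 to 5 cells. A further 5 were in 6 to 20 cells, and 0 exceeded 20 cells. The largest clones of other V genes had 365, 96 and 14 cells in replicates 1 to 3. Those are the largest of 3673 rearrangements, a far bigger set, so the maxima are not compared. More than 1 cell was seen for 13 of 77 (16.9%), 17 of 102 (16.7%) and 1 of 20 (5%), against 20.7%, 22.4% and 12.8% of others, lower in 3 of 3 libraries without passing the test (15.6% against 20.5% over all, p = 0.0855, adjusted p = 0.264, exact stratified test). Expansion was called for 1 of 21 genes (4.76%), TRBV10. With more than 2 cells as the limit, 10 of 199 TRBV31 rearrangements were counted (ratio 0.525, exact stratified test, adjusted p = 0.127).

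The largest TRBV31 clones are shown with the bases between the germline V and J matches in capitals, which hold the D segment and the added bases.
Replicate 1, TRBJ2-7, 9 cells: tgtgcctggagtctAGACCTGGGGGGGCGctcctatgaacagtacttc
Replicate 1, TRBJ2-3, 7 cells: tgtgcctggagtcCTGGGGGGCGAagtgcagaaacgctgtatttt
Replicate 1, TRBJ2-4, 5 cells: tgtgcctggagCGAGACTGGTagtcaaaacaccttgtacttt
Replicate 2, TRBJ1-2, 14 cells: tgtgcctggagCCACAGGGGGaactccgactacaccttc
Replicate 2, TRBJ1-2, 10 cells: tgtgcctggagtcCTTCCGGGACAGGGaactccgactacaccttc
Replicate 2, TRBJ2-7, 6 cells: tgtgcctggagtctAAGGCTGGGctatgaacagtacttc
Replicate 3, TRBJ2-7, 2 cells: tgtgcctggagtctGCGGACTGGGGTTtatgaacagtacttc

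The largest, with 14 cells, made up 0.394% of the 3555 cells with a receptor contig in replicate 2 (95% interval 0.215 to 0.660). It was in place 18 of that library by cells. The 9-cell clone made up 0.379% of the 2374 such cells in replicate 1 (95% interval 0.173 to 0.718) and was in place 13. In each of the 6 clones from replicates 1 and 2, only 1 kind of TRA was found. No TRA was read in 1 cell of the 7-cell clone, 1 of the 14-cell clone and 3 of the 10-cell clone. A second TRB was read in 2 cells of the 7-cell clone and 3 of the 5-cell clone. The TRA of the 14-cell clone was TRAV5-4 with TRAJ48 in 13 cells, and that of the 9-cell clone was TRAV21-DV12 with TRAJ58 in all 9. Only TRBD1 was offered to TRBJ1 joins, so the TRBD1 matches of both TRBJ1-2 clones (8 and 9 bases) were set in advance. The TRBJ2 clones matched TRBD2, with 10, 8 and 6 bases in replicate 1 and 5 in replicate 2. The V end was whole in the 9-cell and the 6-cell clone and had lost up to 3 bases in the other 4. In replicate 3, each rearrangement besides the 2-cell clone was in 1 cell, and those 2 cells had no TRA.

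A single TRBV31 amino acid sequence was found in more than 1 library, joined to TRBJ2-1. It was in 2 cells of replicate 1 and 1 cell of replicate 2, with the same nucleotides in both, a whole V end, 6 bases of D and 1 added base.
Shared, replicates 1 and 2: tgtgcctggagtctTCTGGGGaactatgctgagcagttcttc
The cells of replicate 1 had no TRA, and that of replicate 2 had TRAV9D-3, so a shared pair could not be sought. Sharing was seen for 2 of 199 TRBV31 rearrangements (1.01%) and 2.99% of others (exact stratified test, adjusted p = 0.344), and 1 of 21 genes was called for it (4.76%), TRBV5.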

How the data were processed

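Data were 10X Genomics scTCR-Seq libraries of CD45+ sciatic nerve cells. Per the paper's methods, the authors mapped reads to mm10 with Cell Ranger (version not given in the sources used here). For each contig they deposited its counts of UMIs and reads, V and J genes and CDR3. Contig tables held 18 columns for replicate 1 and 31 for the other libraries, so software may have differed. Clonotype and consensus files were not used.

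Filtered contigs, all of which were productive and of high confidence, were collapsed to rearrangements within each library. Groups came from the labels, 1 condition with 3 libraries. For every TRBV gene with at least 10 entries, each binary trait was compared with all other TRBV genes by an exact two-sided test conditional on each library's margins. P-values were adjusted (Benjamini-Hochberg) over 247 tests, and apart over 252 TRBJ and 340 TRAV family pairs. They compare rearrangements in these libraries, not mice. Cells of a clone were counted as 1 entry for productive chains unless stated. Nonproductive contigs came from the unfiltered annotation and were merged only within a named clonotype. This merged none of the 71 TRBV31 contigs, so cells of a clone can enter more than 1 time there.

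Junctions of 3328 rearrangements were matched to GRCm38 with GENCODE M21 coordinates. TRBV10 and TRBV12-2+TRBV13-2 were left out there, and D matches had at least 3 bases. Charge counted K and R less D and E, without the 4 residues at each end. Intervals are exact Clopper-Pearson 95% intervals, cover counting error only, and 0 counts were read as allowing up to 3. Python 3.11.15, pandas 2.3.3 and scipy 1.17.1 were used, and the test was checked on simulated data.

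Named were TRBV31, its neighbours by mean share, the 3 genes with the most similar TRBJ use, the 3 largest TRBV31 clones per library (in replicate 3, where the rest tie at 1 cell, 1 clone), shared sequences, and the TRBJ genes and TRAV families called or at the extremes. The gene and the traits were chosen with earlier results of these data known.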

Additional observations from a re-analysis of the deposited data

Results flagged for a closer look

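Productive TRBV31 contigs were also present on barcodes that were not called as cells, which no comparison used. There were 184 in replicate 1, 43 in replicate 2 and 26 in replicate 3, above the 3 that a count of 0 allows. They were 2.64%, 3.04% and 4.80% of such productive TRB contigs, with a median of 1, 3 and 1 UMIs. The nucleotide CDR3 of 128, 28 and 6 of them was that of a TRBV31 chain in a called cell of the same library. A single CDR3 accounted for 21 of the contigs in replicate 1, and that of the 14-cell clone for 7 in replicate 2.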

How the results depend on the processing

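Of 84 alternative values, 69 kept their direction and their side of the threshold (for counts and shares, moved little). Leaving out 1 library at a time gave a ratio of 0.628 to 0.837 for UMIs above the median, 0.834 to 0.948 for the productive share, 0.525 to 1.20 for a second TRB (reversed without replicate 2) and 0 to 1 TRAV families called. UMIs above the median also fell short of the threshold with rearrangements of 1 cell only (0.877). With at least 3 UMIs per chain, and with cells of more than 1 TRA or TRB included, 0 TRAV families were called, and at least 3 UMIs turned the ratio for a missing TRA to 1.00. Counting each cell turned the TRBJ2 ratio to 0.956 and brought positive charge past the threshold (1.82, exact stratified test, adjusted p = 2.73e-05), where cells of 1 clone repeat 1 CDR3; the cause was not tested further. For the other results the direction held under each alternative run. The alternatives of 1 cell or exactly 1 TRB for UMIs, of productive CDR3s or TRBV12-1 left out or 3 UMIs in both kinds of contig, and of more than 1 chain or 1 pair per TRB were chosen after seeing the data. Leaving out replicate 1 left under 10 cells for the TRB of fewer UMIs, which then gave no value. No paired analysis was possible because only 1 condition was sampled. Replicate 3, with 20 TRBV31 rearrangements, limits each value by library.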
